A study of Gossypium hirsutum with 24 samples.

Results

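Transcript levels in anthers of 5 mm cotton flower buds were compared with those in the rest of the same-sized buds. The comparison used 6 of the 24 arrays of the series, chosen by their labels: 3 arrays of anthers (replicates 1, 3 and 4) and 3 arrays of buds without anthers (replicates 2, 3 and 4). All RNA came from upland cotton, Gossypium hirsutum, and each sample was hybridised to its own Affymetrix Cotton Genome array. The other arrays held anthers and anther-free buds of 7 and 8 mm, young leaf, and seedlings of 5 days, each again with 3 arrays. Anthers were taken out with a needle and frozen at once, and what was left of the bud was kept apart, so that the bud samples hold all other organs of the bud together. No treatment or genotype difference between the groups is given. The series text describes stages before, during and after meiosis, and calls its replicates biological. The labels do not say which bud size belongs to which stage, nor from which plants the samples came, so groups are named by size and p-values measure only the spread between these samples.

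Anthers are the organs in which pollen mother cells go through meiosis and develop into pollen. They are lined by the tapetum, a layer of secretory cells that feeds the pollen mother cells and microspores and supplies material for the pollen wall before it breaks down. The rest of the flower bud is made up mainly of green and expanding organs, and cotton ovules later carry the single-celled seed hairs known as fibres, for which many cotton genes were named.

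Every value is a log2 level of a probe set, a group of short probes for 1 transcript, as the authors normalised it. The lowest value in the table was 2.16. Background was set at 2.23 from reporter and tag controls taken as having no target loaded, though a reporter among them was bright on every array. Of 23977 probe sets that are not controls, 17666 passed background on at least 3 of the 24 arrays and were tested. Between 65.9% and 66.7% lay above background on the anther arrays, and between 64.7% and 65.1% on the bud arrays. A difference was called when its limma adjusted p (Benjamini-Hochberg) was under 0.05 and its size was at least 1 log2 unit. In bulk samples, fewer cells of a type and less RNA per cell cannot be told apart.

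An array in each group stood apart from the others. On anther replicate 1, 174 probe sets lay 2 or more log2 units above both other anther arrays and 42 as far below, while replicates 3 and 4 had 4 and 18 above, and 39 and 12 below. It correlated over probe sets with the 7 mm anther arrays at r = 0.971 to 0.974, against 0.940 to 0.953 for the other 5 mm anther arrays. On bud replicate 2, 543 probe sets lay 2 or more units below both other bud arrays, against 5 and 3 for replicates 3 and 4. Its correlation with the other bud arrays was 0.950 and 0.960, where replicates 3 and 4 reached 0.986 with each other. The level of the bacterial spike-in controls was 9.0, 9.55 and 9.35 on the anther arrays and 8.48, 9.07 and 8.97 on the bud arrays, lowest in each group on the array that stood apart. Where leaving out either array changed the call of a difference given below, the value without it is given or the change is stated.

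The labels were checked with probe sets picked by their differences at 7 and 8 mm, where 27.9% of probe sets were called at 7 mm and 24.7% at 8 mm. The filter and the pooled spread behind those calls also used the 5 mm arrays, so the check is not fully independent of them. Of 1165 probe sets called higher in anthers at both 7 and 8 mm, 606 (52.0%) were called higher and 17 lower in anthers at 5 mm, with a median difference of 1.06. Of 1970 called lower in anthers at both later sizes, 1356 (68.8%) were called lower and 11 higher at 5 mm, with a median of -1.72. The median level of the anther-high probe sets was 7.92, 7.91 and 7.83 on the anther arrays and 6.99, 6.61 and 6.72 on the bud arrays. The bud-high probe sets had medians of 5.73, 5.72 and 5.59 on the anther arrays and 7.46, 8.21 and 8.09 on the bud arrays. Each of the 6 arrays therefore lay on the side of its label.

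At 5 mm, 1775 probe sets were higher (10% of those tested) and 2112 lower (12%) in anthers than in the rest of the bud. The falls were larger than the rises. Among calls of at least 3 log2 units there were 86 rises and 498 falls, and among those of at least 5 units 13 rises and 114 falls. For 1666 of the rises (9.43% of probe sets tested) and 1849 of the falls (10.5%) the groups did not overlap on any array. Above background on all 3 anther arrays and no bud array were 119 probe sets (0.674%), and the opposite held for 81 (0.459%). The median difference over all tested probe sets was 0.10. It was 0.39 after median centring and -0.09 after scaling to the spike-in controls, and with these settings 67.3% and 15.9% of the calls were rises, against 45.7% as reported.

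**Figure D1:**
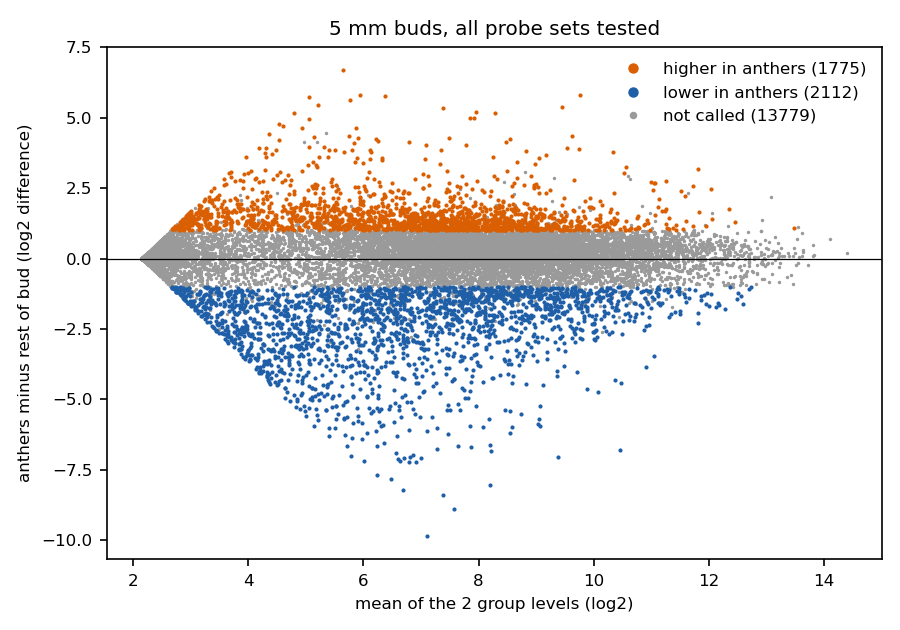
Difference between 5 mm anthers and the rest of the bud (log2, vertical axis) against the mean of the 2 group levels (log2, horizontal axis) for all 17666 tested probe sets. Coloured points are the 1775 rises and 2112 falls in anthers. Falls reach -9.85 and rises 6.69, and the sloping edges on the left mark the lowest value of the table.

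Only 634 of the tested probe sets carry a single gene symbol, for 495 loci, and 290 of these (231 of 246 loci with such names) also have a descriptive older gene name. Among the 634, 34 rose (5.36%) and 124 fell (19.6%) in anthers. Among the 290 with a descriptive name, 12 rose (4.14%) and 65 fell (22.4%), so that the genes that can be named hold fewer rises and more falls than the array as a whole. Most of the strongest calls have no symbol. The largest rise was at GhiAffx.42205.1.S1_at, with 7.73, 9.56 and 9.66 in anthers against 2.38, 2.34 and 2.16 in buds, a difference of 6.69 ± 0.33 (SE; adjusted p = 1.65e-11). The largest fall was at Ghi.1956.1.S1_s_at, with 2.22, 2.16 and 2.18 in anthers against 12.58, 11.57 and 11.95 in buds. All its anther values lay below background, so it was at least 891-fold lower in anthers. Its levels in leaf and seedling were also high, at 11.20 and 12.86.

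A floral regulator was among the 12 largest rises of genes with a symbol: MADS-3 (LOC107925198, also MADS10), a MADS-box transcription factor, from a family that specifies floral organs in other flowering plants. Its levels were 12.59, 12.16 and 12.36 in anthers and 10.04, 9.46 and 9.40 in buds. Every anther array lay above every bud array, and the difference was 2.73 ± 0.15, or 6.64-fold (adjusted p = 1.05e-10). The difference was 2.26 at 7 mm and 2.05 at 8 mm. Leaf and seedling averaged 8.94 and 7.29 for MADS-3, also well above background. myb109 (LOC107961466), a MYB transcription factor known in cotton for its part in fibre development, had 8.38, 8.57 and 8.60 in anthers against 5.87, 5.23 and 5.49 in buds. The groups were wide apart, with a difference of 2.99 ± 0.27 (7.92-fold, adjusted p = 8.22e-08). In leaf and seedling its level averaged 2.33 and 2.72, near background.

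Signalling and cell surface genes were also among the rises. The small GTPase gene Rac2 (LOC107939787, also Rac6 and RacA), of the plant family that directs polarised growth and the cytoskeleton, had 10.04, 9.44 and 9.57 in anthers and 7.78, 7.24 and 7.40 in buds. It was 4.63-fold higher in anthers (difference 2.21 ± 0.15, adjusted p = 1.08e-09). Leaf and seedling averaged 8.83 and 8.33 for Rac2, above the bud arrays. FLA18 (LOC107956913), a fasciclin-like arabinogalactan protein of the cell surface, had 5.87, 4.84 and 5.05 in anthers against 2.56, 2.43 and 2.43 in buds (difference 2.78 ± 0.40, adjusted p = 1.77e-05). Bud levels of FLA18 were barely above background on all 3 arrays. LEGB (LOC107914926), which encodes the seed storage protein legumin B, had 8.03, 7.23 and 7.86 in anthers against 5.80, 4.97 and 5.88 in buds, without overlap (difference 2.16 ± 0.31, adjusted p = 2.01e-05). Leaf and seedling averaged 7.14 and 5.79 for LEGB.

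The largest rises among genes with a symbol rested on uneven anther arrays. ZFP1 (LOC107933034), named as a zinc finger protein, had 10.39, 6.76 and 6.62 in anthers and 3.62, 4.17 and 2.93 in buds. Anther replicate 1 stood far above the other 2 anther arrays, which still lay above every bud array. The difference was 4.35 ± 0.68 (adjusted p = 4.62e-05), it ranged from 3.11 to 5.00 over the alternative settings, and with only the 6 arrays of 5 mm buds its adjusted p was 0.0511. LOC107956851 showed the same unevenness, with 10.62, 7.03 and 6.48 in anthers and exactly 3.76 on all 3 bud arrays, so that the size of its difference, about 4.28, is approximate. Its adjusted p was 8.34e-05 with all arrays and 0.0543 with the 6 alone.

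The remaining 5 of the 12 largest rises carry locus numbers only. LOC107959710 had 10.59, 10.30 and 10.33 in anthers against 8.84, 8.53 and 8.13 in buds (difference 1.91 ± 0.16, adjusted p = 3.32e-08), while leaf and seedling averaged 2.33 and 2.47. LOC107912022 had 7.12, 7.63 and 7.62 in anthers against 5.24, 5.36 and 5.21 in buds (difference 2.18 ± 0.27). It too was low in leaf (2.63) and seedling (3.22), so both genes were measured mainly in flower bud tissue. LOC107921152, LOC107946138 and LOC107949225 rose by 1.86, 2.24 and 1.95. The calls of LOC107946138 and LOC107949225 were lost with the 6 arrays alone (adjusted p of 0.0797 and 0.0573), and a second probe set of LOC107949225 differed by 0.43 (adjusted p = 0.462).

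**Figure D2:**
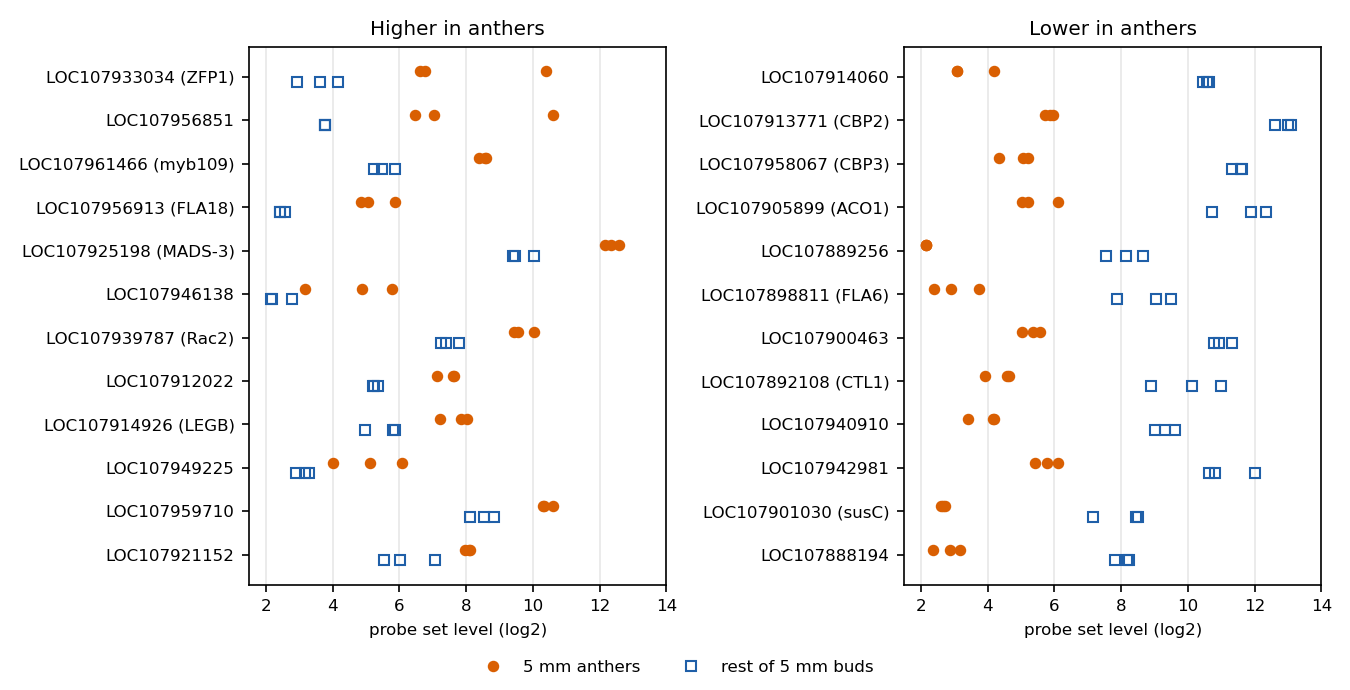
Levels (log2, horizontal axis) of the 12 largest rises (left panel) and 12 largest falls (right panel) among genes with a single symbol whose groups did not overlap, 1 row per gene. Filled circles are the 3 anther arrays and open squares the 3 bud arrays; ZFP1 and LOC107956851 have an anther array near 10 and the other two near 7.

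Among the largest falls were genes of ethylene and cell wall synthesis. ACO1 (LOC107905899) encodes ACC oxidase, the enzyme of the last step of ethylene synthesis, and had 6.10, 5.22 and 5.02 in anthers against 10.73, 12.35 and 11.88 in buds. It was 73.9-fold lower in anthers (difference -6.21 ± 0.38, adjusted p = 3.15e-10). CTL1 (LOC107892108), a chitinase-like protein needed for normal cellulose formation in Arabidopsis, had 3.92, 4.64 and 4.59 in anthers and 10.98, 8.91 and 10.11 in buds. The fall of CTL1 was 5.62 ± 0.37, or 49.0-fold (adjusted p = 8.06e-10). The sucrose synthase gene susC (LOC107901030), of the enzymes that supply UDP-glucose for cellulose, had 2.73, 2.65 and 2.60 in anthers against 8.50, 7.15 and 8.44 in buds (difference -5.37 ± 0.24, adjusted p = 2.84e-12). Levels of susC were 2.73 in leaf and 8.72 in seedling.

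FLA6 (LOC107898811) gave the widest gap of the fasciclin-like genes. Its levels were 2.39, 2.90 and 3.76 in anthers and 9.49, 7.88 and 9.05 in buds (difference -5.79 ± 0.33, adjusted p = 1.23e-10), and a second probe set differed by -5.38. CBP2 (LOC107913771) had 5.73, 5.88 and 5.96 in anthers against 13.10, 13.00 and 12.60 in buds, and CBP3 (LOC107958067) had 4.33, 5.06 and 5.22 against 11.31, 11.62 and 11.61. These were 132-fold and 99.8-fold lower in anthers. Anther arrays lay more than 6 log2 units below every bud array at both. LOC107914060, with 3.09, 3.09 and 4.19 in anthers against 10.56, 10.64 and 10.45 in buds, had the largest fall of all single-symbol genes, 7.09 ± 0.38 (adjusted p = 5.71e-11).

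Some falls concerned transcripts that were low outside the bud as well. LOC107888194 had 2.37, 2.88 and 3.18 in anthers against 8.17, 8.24 and 7.83 in buds (difference -5.27 ± 0.16, adjusted p = 9.97e-15), while leaf and seedling averaged 2.35 and 2.25. LOC107898728 was below background on all 3 anther arrays, at 2.16, 2.19 and 2.19, and had 6.11, 6.05 and 6.47 in buds. It was at least 15.7-fold lower in anthers and again near background in leaf (2.16) and seedling (2.18). Of anthers, buds, leaf and seedling, both were clearly above background in the buds without anthers alone. By contrast, LOC107889256 (at least 58.8-fold lower in anthers), LOC107900463, LOC107940910 and LOC107942981, which fell by 5.69, 5.38 and 5.38, had seedling levels of 10.60 or more.

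To describe gene classes, loci with a descriptive name were sorted into 18 families by those names. The families were formed after values had been seen, and the genes named from here on beyond the largest changes were chosen with their values known. Where 0 members of a family are given as called one way by limma, 0 also had an unadjusted p under 0.05 in that direction, except 1 higher in ethylene synthesis, 1 lower among Rac GTPases and MAP kinases, 1 lower among pectin enzymes, 2 lower among tubulins and actins, and 3 higher among oxidative stress enzymes. The share called over all probe sets, 10% higher and 12% lower, is the level against which each family count is to be read.

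**Figure D3:**
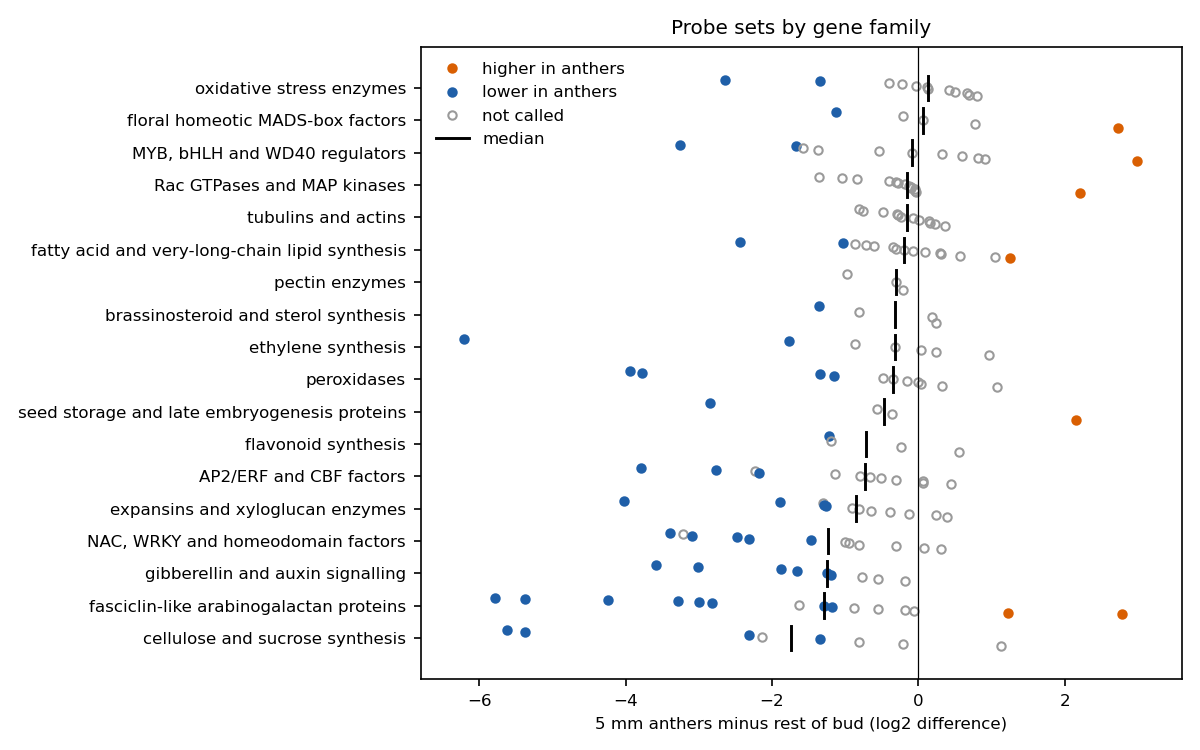
Difference between 5 mm anthers and the rest of the bud (log2, horizontal axis) for each probe set of the 18 gene families. Orange points rose and blue points fell in anthers, open circles were not called, and black bars are family medians. Cellulose and sucrose synthesis has the lowest median, -1.74, and oxidative stress enzymes the highest, 0.13.

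Cell wall genes that were called were mainly lower in anthers. Of 15 probe sets for fasciclin-like arabinogalactan proteins, from 10 genes, 8 fell and 2 rose (median difference -1.29, against 0.10 over all probe sets). FLA6 and FLA19 each gave more than 1 of the falls, so these are not all separate genes. The call of FLA11 (LOC107922285, -1.29) was lost without bud replicate 2 (-0.95). That of a FLA14 probe set (LOC107889457, -1.19) was lost without bud replicate 4 (-0.99). FLA7 (LOC107942443) had 2.17, 2.16 and 2.49 in anthers and 7.50, 5.35 and 6.69 in buds, a fall of 4.24 ± 0.33 (adjusted p = 1.01e-08). All 3 probe sets of FLA19 (LOC107954983) fell, by 2.82 to 3.28. FLA4 (LOC107946184) had 6.32, 6.05 and 5.16 in anthers against 4.00, 5.05 and 4.83 in buds. Its rise of 1.22 was no longer called without anther replicate 1 (0.98) or bud replicate 2 (0.91). FLA12 and FLA13 differed by 0.55 or less and were not called. Members of the same protein family thus differed in both directions between anthers and the rest of the bud.

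Among expansins and xyloglucan enzymes, which loosen the wall and remodel its xyloglucan, 4 of 12 probe sets fell and 0 rose (median -0.86). EXPA1 (LOC107914543), an alpha-expansin, had 2.16, 2.16 and 2.31 in anthers against 6.72, 5.30 and 6.65 in buds, a fall of 4.02 ± 0.26 (adjusted p = 6.12e-10). It was at background in leaf (2.23) and seedling (2.20) too. The other 3 calls, 2 of XTH1 (-1.88 and -1.30) and EXPA3D (-1.27), were all lost without bud replicate 2, at which each of these probe sets was highest of the bud arrays; 1 call then remained. In cellulose and sucrose synthesis, 4 of 8 probe sets fell and 0 rose. Sus1 (LOC107958826), another sucrose synthase, had 12.21, 11.58 and 11.87 in anthers against 13.67, 13.14 and 12.88 in buds (difference -1.34 ± 0.23, adjusted p = 9.98e-05). A probe set for the cellulose synthase subunit CesA1 (LOC107909647) had 6.12, 3.76 and 3.14 in anthers and 7.69, 5.41 and 6.86 in buds, so that anther replicate 1 overlapped the buds (difference -2.32 ± 0.62, adjusted p = 0.00502, and 0.162 with the 6 arrays alone). A second CesA1 probe set was above background, of the 6 arrays, on anther replicate 1 alone. Its difference was 1.13, not called with all arrays and called higher without anther replicate 3 or 4 (1.70 in each case). Without anther replicate 1, 6 of the 8 cellulose and sucrose synthesis probe sets fell and 0 rose by limma.

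Tubulins and actins, which form the cytoskeleton, gave no calls. Of 12 probe sets, 0 were called by limma in either direction and 2, both lower, had an unadjusted p under 0.05. Their median difference was -0.16, or 0.14 after median centring; without bud replicate 3, 2 fell. The alpha-tubulin TubA1 (LOC107886968) had 13.12, 13.10 and 13.26 in anthers and 13.21, 12.89 and 12.94 in buds, with overlapping groups. The actin probe set for ACT1 (LOC107911661) had 12.59, 12.13 and 12.13 in anthers against 12.72, 12.37 and 12.48 in buds, a difference of -0.24.

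The floral MADS-box genes went separate ways. Of 5 probe sets, MADS-3 rose and MADS-2 fell. SEPALLATA3 (LOC107909849), of the class that acts together with the organ identity factors in Arabidopsis, had 9.92, 9.17 and 9.59 in anthers and 9.68, 9.36 and 9.47 in buds, a difference of 0.06. MADS-1 (LOC107933402) had overlapping levels, with 12.84, 12.75 and 12.85 in anthers and 13.36, 12.83 and 12.87 in buds. MADS-9 (LOC107893918) had 4.26, 5.38 and 5.34 in anthers against 4.51, 4.22 and 3.92 in buds, a difference of 0.78 that was not called with all arrays and was called without anther replicate 1 (1.15) and without both arrays that stood apart (1.29). Of 11 probe sets for MYB factors and their bHLH and WD40 partners, myb109 rose and 2 fell. The falls numbered 4 without bud replicate 2, and also without both arrays that stood apart. Those gained were MYB5 (LOC107912305) and MYB (LOC107909337), at -2.05 and -2.84 without bud replicate 2. GHMYB36 (LOC107941297) had 2.98, 4.88 and 3.89 in anthers against 8.08, 6.23 and 7.22 in buds (difference -3.26 ± 0.44, adjusted p = 9.09e-06). For GHMYB38 (LOC107932200) a probe set fell by 1.68 while another differed by 0.91 and was not called.

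Calls in 2 groups of transcription factor families, many of whose members act in stress responses and development, depended on the arrays that stood apart. Of 12 probe sets for NAC, WRKY and homeodomain factors, 5 fell and 0 rose in anthers (median -1.23), and of 12 for AP2/ERF and CBF factors, 3 fell and 0 rose (median -0.73). Without bud replicate 2, 9 and 7 fell, and the same counts were found without both bud replicate 2 and anther replicate 1. With only the 6 arrays of 5 mm buds, 2 and 1 fell. The median level of these 24 probe sets was 6.44, 4.95 and 4.70 in anthers and 5.14, 8.87 and 8.28 in buds. Bud replicate 2 lay at least 1 log2 unit below both other bud arrays at 12 of the 24 (50%), against 6.43% of all tested probe sets, and anther replicate 1 was the highest anther array at 17 of the 24. The gap between the 3′ and 5′ actin control probes, a sign of RNA integrity, was 3.22, 4.21 and 3.05 on the anther arrays and 3.39, 3.38 and 3.28 on the bud arrays. At the ubq11 control probes the gap was 0.61, 1.60 and 0.89 on the anther arrays and 1.25, 0.60 and 0.86 on the bud arrays. There it was widest of the buds on bud replicate 2 and narrowest of the anthers on anther replicate 1. The part of RNA integrity in this result was not tested.

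**Figure D4:**
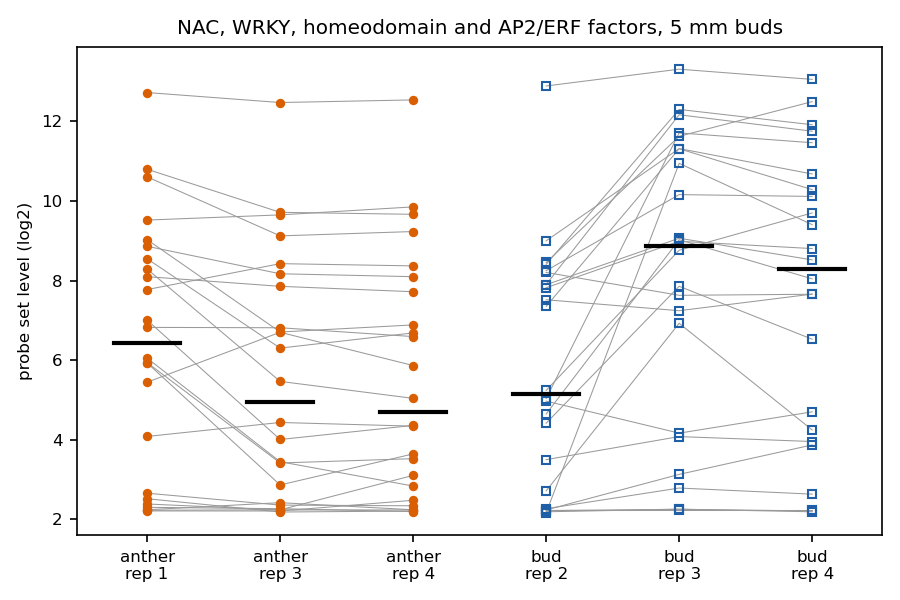
Levels (log2, vertical axis) of the 24 probe sets for NAC, WRKY, homeodomain, AP2/ERF and CBF factors on the 3 anther arrays (filled circles, left) and the 3 bud arrays (open squares, right). Grey lines join values of the same probe set within a group and black bars are medians; bud replicate 2, with a median of 5.14, lies among the anther arrays.

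Individual factors followed this pattern to different degrees. NAC4 (LOC107916546) had 8.29, 5.46 and 5.04 in anthers and 7.35, 11.31 and 10.29 in buds, so that bud replicate 2 overlapped the anthers. Its fall was 3.39 ± 0.82 (adjusted p = 0.0025) with all arrays and 5.55 without both arrays that stood apart, and a second probe set gave -3.09 and -5.28. With the 6 arrays alone neither probe set was called (limma adjusted p of 0.146 and 0.184). The call of the second was also lost without anther replicate 3 or bud replicate 3. DBP3b (LOC107890730), of the AP2/ERF class, had 6.05, 3.44 and 2.83 in anthers against 5.24, 8.76 and 9.70 in buds (difference -3.79, or -6.09 without both arrays). The call of DBP3b was lost with the 6 arrays alone (limma adjusted p = 0.133). For DREB1C (LOC107898106), whose relatives switch on cold-responsive genes, anthers were even, at 6.82, 6.81 and 6.59, and below every bud array, at 8.25, 10.16 and 10.11 (difference -2.77 ± 0.42, adjusted p = 3.76e-05). NAC5 (LOC107892421) had 5.94, 3.41 and 3.52 in anthers against 2.16, 10.95 and 9.41 in buds, with bud replicate 2 below every anther array. Its difference of -3.21 was not called with all arrays, and was called without bud replicate 2 (-5.89), without anther replicate 1 (-4.04) and without both (-6.71). HOX3 (LOC107904747), a homeodomain factor known in cotton for fibre elongation, and NAC7 (LOC107909534) did not show the pattern. HOX3 had 2.51, 2.18 and 2.20 in anthers against 4.97, 4.16 and 4.70 in buds, a fall of 2.31 ± 0.29 (adjusted p = 3.4e-06), and NAC7 fell by 1.47 ± 0.25 (adjusted p = 0.000111).

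In gibberellin and auxin signalling, 6 of 9 probe sets fell in anthers and 0 rose (median -1.24), and 3 fell with the 6 arrays alone. Aux6 (LOC107928986) had 4.42, 4.70 and 4.09 in anthers against 8.15, 7.89 and 7.92 in buds, a fall of 3.58 ± 0.29 (adjusted p = 1.78e-08). Aux3 (LOC107906148) was as even within groups, with 7.54, 7.95 and 7.78 in anthers and 9.52, 9.33 and 9.40 in buds (difference -1.65 ± 0.13). The gibberellin receptor gene GID1-2 (LOC107924318) had 6.46, 4.94 and 5.05 in anthers and 5.42, 10.05 and 9.98 in buds. Bud replicate 2 lay among the anthers there, the difference of -3.01 ± 0.86 became -4.54 without it, and the call was lost without bud replicate 3 (-2.22) or 4 (-2.26). With the 6 arrays alone GID1-2 was not called either (limma adjusted p = 0.193). GAI2 (LOC107918217), a DELLA repressor of gibberellin response, differed by -0.77 and was not called. Of 7 ethylene synthesis probe sets, ACO1 (LOC107905899) and an ACC synthase, ACS6 (LOC107947061, -1.77), fell, and the call of ACS6 was lost when anther replicate 1, 3 or 4 or bud replicate 3 or 4 was left out. Another locus also named ACO1 (LOC107954048) differed by -0.87, not called with all arrays and called lower without anther replicate 1 (-1.12). ACO3 (LOC107915412) was called lower without both arrays that stood apart (-1.15, against -0.32 with all arrays). ACS1 (LOC107950760) had 11.29, 11.50 and 11.44 in anthers and 10.60, 10.38 and 10.36 in buds, a difference of 0.96 that did not reach the size required for a call with all arrays and was called without anther replicate 1 (1.02), bud replicate 2 (1.04) or both (1.10).

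Most lipid synthesis and peroxidase probe sets were not called. Of 15 lipid synthesis probe sets, 2 fell and 1 rose. The falls were CPA-FAS-3 (LOC107932144), a cyclopropane fatty acid synthase, with 3.35, 3.27 and 4.11 in anthers against 5.88, 6.04 and 6.11 in buds (difference -2.44 ± 0.33, adjusted p = 1.05e-05), and CPA-FAS-2, whose difference of -1.03 was not called without anther replicate 1 (-0.78) or bud replicate 2 (-0.92). The rise was a weak probe set of KCS38 (LOC107925445), an enzyme of very-long-chain fatty acid elongation. It had 3.59, 3.10 and 3.93 in anthers and 2.30 on every bud array (about 1.24). Differences at 3 other KCS38 probe sets ran from -0.86 to 0.30. CPA-FAS-1 (LOC107933118) went the other way from CPA-FAS-2 and CPA-FAS-3, by 1.05, and was not called with all arrays. It was called higher without anther replicate 1 (1.81) and without both arrays that stood apart (2.00). The lipid family then had 2 rises in each setting, with 1 and 3 falls. Of 11 peroxidase probe sets, 4 fell and 0 rose. Without bud replicate 2, 2 fell, and without bud replicate 3 pod5 (LOC107922335) rose by 1.79 (adjusted p = 0.0391 by limma), against 1.07 and no call with all arrays. pod10 (LOC107914313) was at 2.16 on all 3 anther arrays and had 6.12, 6.64 and 5.52 in buds, at least 14.5-fold lower in anthers. POX10 (LOC107937645) had 2.73, 3.22 and 2.54 in anthers against 7.85, 5.62 and 6.33 in buds (difference -3.77 ± 0.39, adjusted p = 4.33e-07).

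Of 12 probe sets for oxidative stress enzymes, 2 fell and 0 rose. Without anther replicate 1, and without both arrays that stood apart, 1 rose. GST (LOC107889738) was called higher in these settings (1.21 in each, against 0.80 with all arrays). The catalase CAT2 (LOC107943729) had 3.70, 3.99 and 3.22 in anthers and 6.16, 6.56 and 6.10 in buds (difference -2.64 ± 0.30, adjusted p = 1.41e-06), and dehydroascorbate reductase DHAR1 fell by 1.34. The superoxide dismutases MnSOD and FeSOD and the ascorbate peroxidases differed by 0.66 or less and were not called. In flavonoid synthesis 1 of 4 fell, the dihydroflavonol reductase DFR (-1.22, and -0.87 without both arrays that stood apart), and in sterol and brassinosteroid synthesis 1 of 4, the sterol methyltransferase SMT2-1 (-1.35). Of 4 probe sets for seed storage and late embryogenesis proteins, LEGB rose and Lea14-A (LOC107922715) fell. Without both arrays that stood apart, Lea5-D (LOC107916177) was called lower as well (-2.54, against -0.37 with all arrays). Lea14-A had 10.23, 7.86 and 7.63 in anthers and 8.92, 12.65 and 12.71 in buds, with overlapping groups, and its fall of 2.85 was 4.94 without both arrays. Its call was lost with the 6 arrays alone (limma adjusted p = 0.188). Pectin enzymes gave 0 calls by limma among 3 probe sets, with 1 lower at an unadjusted p under 0.05; GAE2, an enzyme for a pectin sugar precursor, fell when anther replicate 4 or bud replicate 3 or 4 was left out.

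Of 14 probe sets for Rac GTPases and MAP kinases, Rac2 rose and 0 fell. Without bud replicate 2, 4 fell, of which 3 were probe sets of MPK3. MPK3 (LOC107959059), a kinase of stress and defence signalling, had 6 probe sets, of which 0 were called at 5 mm by limma and 0 had an unadjusted p under 0.05 with all arrays. Without bud replicate 2, 3 of them were called lower, at -2.67, -2.30 and -1.93, against -1.36, -1.04 and -0.28 with all arrays. The probe set with the highest bud values had 10.62, 9.42 and 9.13 in anthers and 6.70, 11.24 and 12.06 in buds.

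Several single genes of other pathways fell as well. Rubisco activase, RCA1 (LOC107942112), which keeps the carbon-fixing enzyme of photosynthesis active, had 2.37, 2.37 and 2.46 in anthers against 6.37, 6.45 and 5.58 in buds, a fall of 3.74 ± 0.47 (adjusted p = 4.39e-06). Leaf and seedling averaged 13.28 and 12.44, so buds held an intermediate level. E6 (LOC107913945), a protein named from cotton fibres, had 7.04, 6.88 and 6.14 in anthers and 10.82, 10.02 and 10.47 in buds (difference -3.75 ± 0.23, adjusted p = 3.56e-10). The germin-like protein Glp1 (LOC107907099) fell by 4.19 ± 0.32, the lipoxygenase Lox1 (LOC107919998) by 2.30 ± 0.34, the S-adenosylmethionine synthetase SAMS (LOC107910531) by 1.49 ± 0.22 and the CONSTANS-like COL5-D (LOC107906795) by 1.60 ± 0.18. The elongation factor gene EF1A7 (LOC107934194) rose by 1.04 ± 0.18 and was not called when anther replicate 3 or 4 or bud replicate 3 or 4 was left out. At LOC107899490 2 probe sets were called in opposite directions, 2.05 and -2.52, the only such case among the 101 loci with several probe sets.

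The difference at 5 mm was then tested against those at the later sizes, which come from separate arrays. It differed from that at 7 mm for 1366 probe sets (7.73%), from that at 8 mm for 1911 (10.8%), and from the mean of both for 1690 (9.57%), of which 788 lay above (4.46%) and 902 below (5.11%). Without anther replicate 1, 2129 differed from 7 mm. Among probe sets with a single symbol, 33 lay above and 43 below the mean of the later sizes.

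MADS-2 (LOC107914052) is a MADS-box gene whose difference changed with bud size through its levels in the buds. It had 2.34, 2.31 and 2.43 in 5 mm anthers and 4.47, 3.20 and 2.80 in 5 mm buds. Bud means were 3.49, 6.31 and 8.08 at 5, 7 and 8 mm, while anther means stayed at 2.36, 2.37 and 2.34. Its difference was -1.13 at 5 mm, -3.94 at 7 mm and -5.74 at 8 mm, and the first lay 3.71 ± 0.32 above the mean of the others (adjusted p = 5.76e-07). The 5 mm difference alone was not called without bud replicate 2 (-0.64), after median centring (-0.83) or after spike-in scaling (-0.89). With the 6 arrays alone it was not called either (limma adjusted p = 0.136). pod6 (LOC107908968) was near background in both 5 mm tissues (means of 2.31 in anthers and 2.27 in buds) and reached 6.52 and 5.64 in buds of 7 and 8 mm, against 2.82 and 2.28 in anthers of those sizes. pod5 (LOC107922335) lay 3.22 ± 0.82 above the mean of the later sizes, a call lost with the replicate number as a block (adjusted p = 0.0659 by limma). Its differences at 5, 7 and 8 mm were 1.07, -0.79 and -3.51, so the gap came mainly from 8 mm. Without both arrays that stood apart, the tests of pod6 and pod5 gave adjusted p of 0.0588 and 0.066, and the values were 3.42 and 1.63.

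LOC107946138 was the single-symbol gene whose 5 mm difference lay furthest above the later ones. Its first probe set had 11.99, 13.54 and 13.46 in 5 mm anthers against 9.22, 13.04 and 9.05 in 5 mm buds, with bud replicate 3 above anther replicate 1. Its mean difference was 2.56 at 5 mm, -1.91 at 7 mm and -2.31 at 8 mm (test of 5 mm against the later mean 4.67 ± 1.01, adjusted p = 0.00418). Its second probe set, with 3.17, 4.89 and 5.78 in 5 mm anthers and 2.16, 2.78 and 2.18 in 5 mm buds, gave 2.24, -0.30 and -0.34. The 5 mm call of the first was lost without anther replicate 3 or 4 or bud replicate 2 or 4 (values from 1.87 to 2.33), and its value was 3.86 without bud replicate 3. LOC107909128 lay 3.70 ± 1.03 above, a call lost without anther replicate 3 or bud replicate 2 (adjusted p of 0.051 and 0.0515). Its differences at 5, 7 and 8 mm were 2.08, -3.25 and 0.02, so the gap came mainly from 7 mm.

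Other genes were raised in anthers at the later sizes and not yet at 5 mm. UGD2 (LOC107887357), UDP-glucose dehydrogenase, which makes a sugar precursor of pectin and hemicellulose, had 9.19, 8.62 and 8.39 in 5 mm anthers and 9.88, 9.41 and 9.34 in 5 mm buds. Its difference was -0.81 at 5 mm (-1.04, and called lower, without anther replicate 1), 3.17 at 7 mm and 1.95 at 8 mm, with anther means of 8.73, 12.90 and 11.77 (test -3.37 ± 0.41, adjusted p = 2.58e-05). LOC107923176 lay near background in 5 mm anthers, at 2.43, 2.45 and 2.26, and in 5 mm buds, at 2.47, 2.47 and 2.45, and averaged 9.45 and 7.03 in 7 and 8 mm anthers (test -5.36 ± 1.04, adjusted p = 0.00189). LOC107953630 had a difference of 0.25 at 5 mm, 3.49 at 7 mm and 2.83 at 8 mm (test -2.91 ± 0.24, adjusted p = 2.3e-07).

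The pectate lyase gene Pel (LOC107949717), whose product cuts pectin, had 6.20, 2.58 and 2.16 in 5 mm anthers and 5.00, 2.86 and 3.98 in 5 mm buds, and averaged 9.72 and 6.36 in anthers of 7 and 8 mm. Anther replicate 1 was again the highest of its group. The test gave -4.13 ± 1.37 (adjusted p = 0.0457), and the call was lost without anther replicate 3 or 4 or bud replicate 2 or 4, and after spike-in scaling (-3.05). A probe set of MPK3 (LOC107959059) had 2.27 on all 3 anther arrays at 5 mm and averaged 7.73 and 3.18 in 7 and 8 mm anthers (test about -3.21, adjusted p = 0.00135), and the other 5 MPK3 probe sets were not called in this test with all arrays. Of those, 1 was called without bud replicate 2 (-1.05) and another without bud replicate 4 (3.47).

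**Figure D5:**
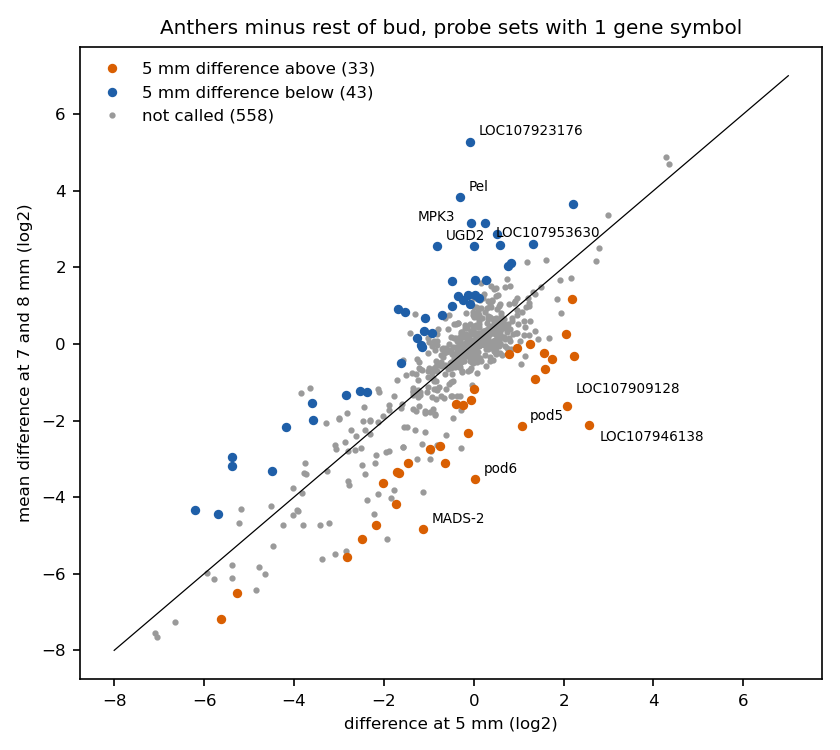
Difference between anthers and the rest of the bud at 5 mm (log2, horizontal axis) against the mean difference at 7 and 8 mm (log2, vertical axis) for 634 probe sets with a single symbol. Orange points (33) have a 5 mm difference above, and blue points (43) below, the later mean; the line marks equal differences, and MADS-2, pod6, UGD2 and LOC107923176 lie far from it.

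Genes with a large difference at 5 mm could also move toward or away from it later. Rac2 rose by 2.21 at 5 mm, 3.88 at 7 mm and 3.42 at 8 mm (test -1.44 ± 0.18, adjusted p = 3.75e-05). ACO1 fell by 6.21, 4.97 and 3.72 at these sizes, and its anther means were 5.45, 7.34 and 6.88 (test -1.86 ± 0.46, adjusted p = 0.0106). CTL1 fell by 5.62, 7.01 and 7.35 (test 1.56 ± 0.45, adjusted p = 0.0229), a call lost without anther replicate 3 or 4 or bud replicate 3. For myb109, FLA18, FLA6, susC, CBP2 and CBP3 no difference between 5 mm and the later sizes was called (adjusted p between 0.221 and 0.762). For ZFP1 (LOC107933034) the test gave -0.35 (adjusted p = 0.838) with all arrays, and it was called without anther replicate 1 (-1.58, adjusted p = 0.0271) and without both arrays that stood apart (-1.56, adjusted p = 0.0473).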

How the data were processed

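Labelled cRNA was read out on Affymetrix cotton arrays. Per the submitters' processing notes, the authors used GCRMA to turn probe intensities into the deposited log2 values, 1 per probe set and array; no software version or probe filter was found in the labels. In GCRMA, background is estimated from probe sequence, and 26.2% of the table's entries equal its minimum, which compresses differences from it.

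Of 24132 probe sets, 155 controls were left out. Background was the 95th percentile of 69 reporter and tag controls, and at least 3 arrays had to exceed it. The 8 groups each had a mean in 1 linear model over the 24 arrays (limma 3.58.1, R 4.3.3), which pools their spread; two-sided moderated p-values were Benjamini-Hochberg adjusted over 17666 probe sets. Errors beside differences are the model's SE, n = 3 arrays a group. Where all arrays of a group lay below background, the fold is the other mean over the background level and is given as a lower bound. For 78 calls a group had no spread.

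The platform annotation gives 1 symbol for 697 probe sets and several for 46; descriptive names are synonyms in the gene table of assembly Gossypium_hirsutum_v2.1, joined by gene ID. No coordinates or sequences are printed. Probe sets ending in s_at or x_at, 8481 of those tested, can bind transcripts of related genes, so members of a family may share signal. The rule for named genes took the 12 largest rises and falls with a single symbol and no overlap, 2 each without a symbol, genes above background in 1 group only, the 5 most size-dependent genes each way, and called members of 11 product-name lists. Those lists found members for cell cycle (1 probe set, 0 called), cell wall and fibre (6, 1 fell), floral organs (5, 1 rose and 1 fell) and stress (2, 1 fell) and 0 for the other 7. The lists hold product names but were matched to the short descriptive gene names. A list with 0 members therefore does not mean that such genes are absent. Members, lists and families were chosen with earlier results of these data known.

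Groups share replicate numbers 3 and 4. Deviations from the group means of same-numbered arrays correlated at -0.05 and -0.22. Those means include the arrays that stood apart, whose numbers are not shared, so these values cannot show or exclude a pairing. The labels do not say from which plants the samples came, and numbers were not taken as pairs. Alternatives covered the filter, a floor, scaling, the prior, weights, arrays in the fit, thresholds, probe set type, the replicate block and each array left out; family counts under them were added after seeing the data. The procedure was tested on simulated data. Figures were drawn with matplotlib 3.10.9.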

Additional observations from a re-analysis of the deposited data

Results flagged for a closer look

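The test of the 5 mm difference against those at other sizes was past its threshold for 1366 probe sets against 7 mm, 1911 against 8 mm and 1690 against the mean of both. Among the genes and probe sets named above, the 5 mm difference lay above the mean of the later sizes by 4.67 and 2.56 (the first and the second probe set of LOC107946138), 3.71 (MADS-2), 3.70 (LOC107909128), 3.56 (pod6), 3.42 (GhiAffx.42205.1.S1_at), 3.22 (pod5), 1.56 (CTL1), 1.23 (LOC107888194) and 1.01 (LOC107912022). It lay below by -5.36 (LOC107923176), -4.13 (Pel), -3.37 (UGD2), -3.21 (a probe set of MPK3), -2.91 (LOC107953630), -2.43 (LOC107940910), -2.19 (LOC107942981), -1.86 (ACO1), -1.44 (Rac2) and -1.25 (LOC107900463). All these values are log2 differences of differences. The call of LOC107912022 was lost when anther replicate 3 or 4 or bud replicate 2, 3 or 4 was left out (values from 0.92 to 1.05), and that of LOC107900463 without anther replicate 4 (-1.10, adjusted p = 0.0558 by limma).

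A reporter control taken here as having no target averaged 14.3 in 5 mm anthers and 14.2 in 5 mm buds. It lay between 13.9 and 14.5 on the 24 arrays. The next highest control of this set averaged 2.40 and 2.50 in these groups. A level so high on every array is not that of a control without target, and whether its target was added was not tested. This bright control stayed among those that set the background.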

How the results depend on the processing

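In the 5 mm difference, no named probe set changed direction under any alternative where it was called. For the 40 named probe sets, 752 values of this difference stayed on their side of the threshold, 53 lost a call and 11 gained one. The lost calls include those under the replicate block with the 6 arrays alone, described below, where every call was lost. The test against later sizes was not part of these counts. There, an MPK3 probe set moved from 0.21 with all arrays to -1.05, a call, without bud replicate 2. Counts that moved by more than 1.5 times are given here, and the cause was not tested. Rises at 5 mm numbered 3396 after median centring, 505 after spike-in scaling, 4964 by adjusted p alone (62.0% of calls were then rises). With an adjusted p under 0.01 and a difference of at least 2 there were 240 rises and 971 falls, and the tests against 7 mm, 8 mm and both gave 303, 513 and 395. Without s_at and x_at probe sets, where fewer were tested, these 5 counts were 1075, 1148, 749, 1039 and 945. The test against 7 mm gave 670 after spike-in scaling, 598 with its own arrays alone and 2198 without both arrays that stood apart; with single arrays left out it ranged from 885 to 2129. The test against 8 mm gave 1218 with its own arrays alone and 2960 with array weights. Adjusted p alone gave 2946 against the mean of both. With the replicate number as a block, all arrays gave 1881 rises, 2071 falls and 1214 against 8 mm. The block with the 6 arrays alone left 0 rises and 0 falls by limma (smallest adjusted p 0.052). In that fit, 7813 probe sets had an unadjusted p under 0.05. There the arrays that stood apart shared their replicate numbers with no other array, so the block left them no part in the difference. Few arrays then remained to estimate the spread, so the lost calls cannot show dependence on the replicate number. The same 6 arrays without the block gave 1345 rises and 1456 falls. With 3 arrays a group, probe sets near the lower limit have compressed differences.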

Other observations

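Probe sets designed from other sequence sources differed in their share of calls. Of 1736 probe sets whose identifiers begin with Gra, 77 rose and 174 fell in 5 mm anthers, against 918 and 995 of 8435 beginning with Ghi. Of 4 probe sets named for ribosomal RNA, 0 were called by limma and 0 had an unadjusted p under 0.05; GhirRNA.4.1.S1_s_at had 7.76, 12.8 and 2.16 in 5 mm anthers and 2.46, 2.46 and 4.43 in 5 mm buds, so that the 3 anther arrays alone spanned more than 10 log2 units.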
